A study of Homo sapiens with 12 samples.

Results

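The genes described here encode the enzymes and regulators of polyamine metabolism, measured by RNA-seq after loss of the chromatin remodeller BRG1 in prostate cancer cells. They were taken by name, by a rule that uses no measured value, and are 10 of the 63568 genes in the expression table: *ODC1*, *AMD1*, *SRM* and *SMS* for synthesis, *SAT1*, *PAOX* and *SMOX* for breakdown, and *OAZ1*, *OAZ2* and *AZIN1* for control of the first enzyme. All 10 were found by their Ensembl gene identifiers and all 10 passed the filter on low values, as did 16337 genes in total.

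Polyamines (putrescine, spermidine and spermine) are small positively charged molecules that bind nucleic acids, and growing cells need them. Ornithine decarboxylase makes putrescine from ornithine, and spermidine synthase and spermine synthase then extend it with aminopropyl groups that the decarboxylase AMD1 prepares from S-adenosylmethionine. The acetyltransferase SAT1 marks spermidine and spermine for export or for oxidation by PAOX, antizymes send ornithine decarboxylase to the proteasome, and the antizyme inhibitor holds antizymes back. The prostate is known for unusually high polyamine synthesis and for secreting spermine into seminal fluid.

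The cells were LNCaP, a human prostate cancer line grown from a lymph node metastasis. They were transfected with 1 of 2 siRNAs against *SMARCA4*, the gene of the BRG1 protein, or with a pool of non-targeting siRNAs (si-NT), and polyadenylated RNA was sequenced at 72 h or at 144 h. Cells collected at 144 h had been harvested at 72 h, split and transfected again with siRNA, so the 144 h groups share a second transfection that the 72 h groups lack. Each siRNA was sequenced in 2 libraries at each time point, which gave 2 si-NT and 4 BRG1-depleted libraries at 72 h and the same at 144 h, 12 in all. The value table numbers the *SMARCA4* siRNAs 2 and 3 whereas the sample titles number them 1 and 2. The numbers of the table are used here, and for 1 library of the 72 h group the labels give both siRNA numbers. Nothing in the labels says that replicates came from separate cultures, so p-values measure the spread between these libraries, which may be technical. The cells were not sorted, and in bulk RNA fewer cells that express a gene cannot be told apart from less of its RNA per cell.

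Values are TPM, transcript abundances scaled to gene length and to a fixed total per library. They keep no depth, so the read depth behind each value is unknown. *SMARCA4* was measured at 73.4 to 107 TPM in the 4 si-NT libraries and at 11.4 to 21.7 TPM in the 8 BRG1-depleted libraries, and its mean fell by 77.3% at 72 h and by 84.8% at 144 h. The 5 markers of prostate luminal cells reported here, *KLK3* and *KRT8* among them, were measured at 118 TPM or above in every library, while the 3 basal and the 3 leukocyte markers did not reach 1 TPM in any. Of the 3 fibroblast markers, *COL1A1* reached 9.11 TPM and the other two stayed under 1 TPM. The spike-in RNAs added to each sample took 0.805% to 1.34% of TPM in si-NT libraries and 1.04% to 1.97% in BRG1-depleted libraries.

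In the si-NT cells the polyamine genes covered a wide range of levels, here compared as TPM over the 4 si-NT libraries (mean ± SD, n = 4). *OAZ1*, the main antizyme, was the most abundant at 1304 ± 79.9 TPM. The 4 synthesis genes followed in the order *AMD1* at 589 ± 98.9 TPM, *SRM* (spermidine synthase) at 319.9 ± 26.6 TPM, *ODC1* (ornithine decarboxylase) at 250.1 ± 40.3 TPM and *SMS* (spermine synthase) at 119 ± 15.5 TPM, with no overlap between neighbours in that order. *OAZ2*, a second antizyme, stood at 96.8 ± 4.29 TPM, *SAT1* at 65.3 ± 9.44 TPM and *AZIN1*, the antizyme inhibitor, at 53.3 ± 1.79 TPM. The oxidases were the lowest, with *PAOX* at 3.70 ± 0.15 TPM and *SMOX*, which oxidises spermine directly, at 2.13 ± 0.743 TPM. The ranges of *SMS* and *OAZ2* overlapped, as did those of *SAT1* and *AZIN1*, while every other pair of neighbours was separate. Between 72 h and 144 h none of the 10 genes passed the limma test in si-NT cells, none had an unadjusted p under 0.05, and 0% of all genes tested were called. The adjusted p-values of the 10 were 0.974 or above.

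**Figure D1:**
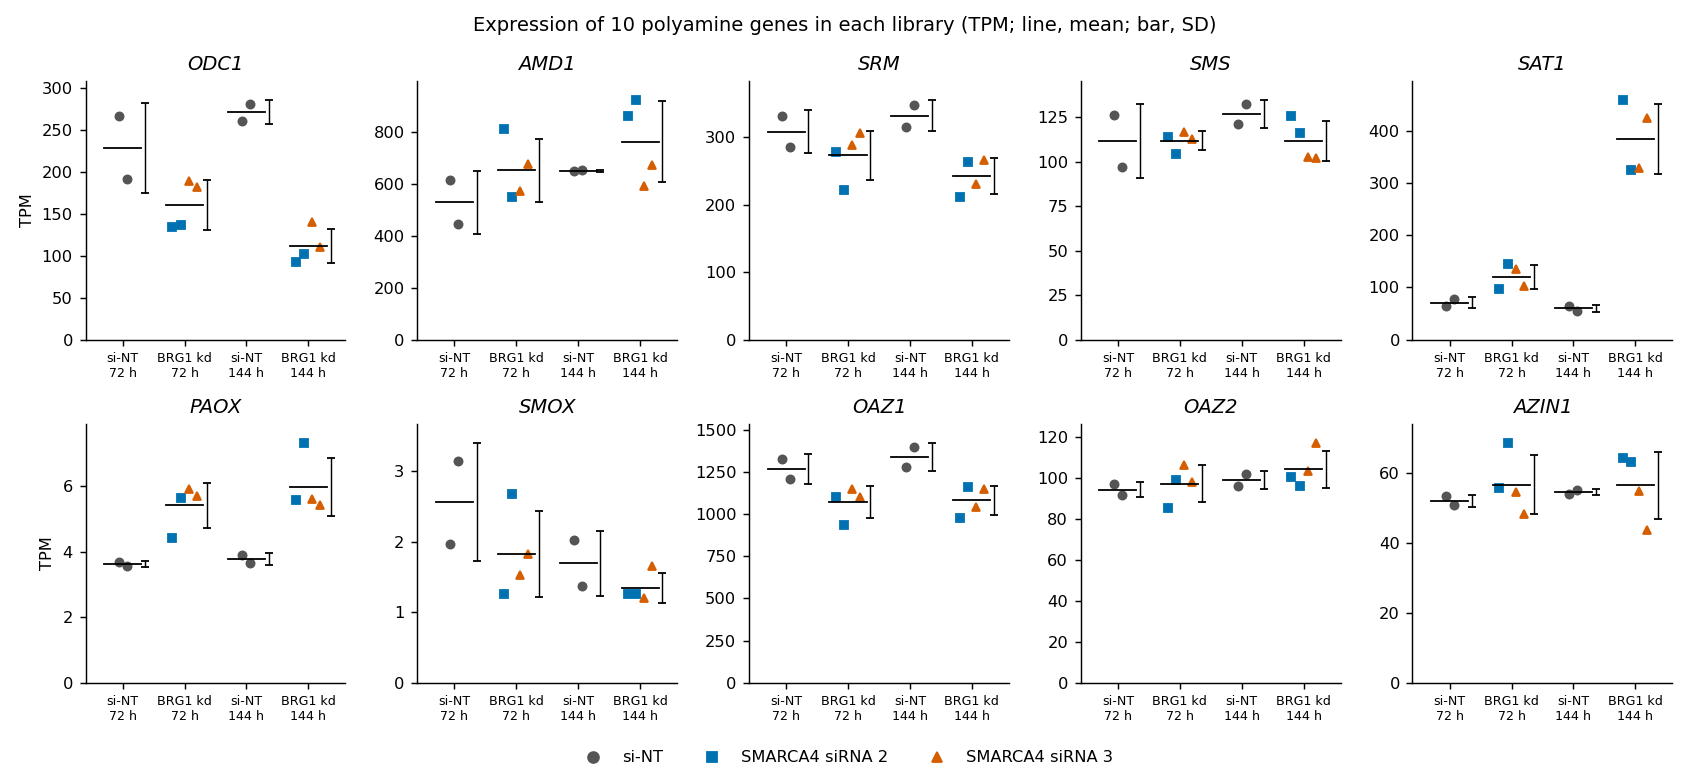
Expression of the 10 polyamine genes in TPM (vertical axes, each from 0) in every library, with si-NT in grey circles, siRNA 2 in blue squares and siRNA 3 in orange triangles; the line is the group mean and the bar its SD. *SAT1* in the BRG1-depleted cells at 144 h (325 to 459 TPM) stands above every other library, and *ODC1* in the same 4 libraries (92.6 to 140.2 TPM) below the si-NT libraries.

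At 144 h after the first transfection, BRG1-depleted cells differed from si-NT cells at both ends of the pathway: *SAT1* was 6.43 times its si-NT mean and *ODC1* fell by 59.0%. *SRM* was lower by a smaller amount and *PAOX* was higher. The other 6 genes did not pass the test. Called here means an adjusted p under 0.05 by limma on log2(TPM + 1), with Benjamini-Hochberg adjustment over all 16337 genes. Fold changes on this scale understate the change of low genes. By that rule 2 of the 10 genes were higher, against 13.6% of all genes tested, and 2 were lower, against 10.8%, and these counts alone do not set the 10 genes apart from the rest. The median log2 fold change of the 10 genes was -0.08, against 0.03 for all genes. Mitochondrial transcripts took 13.8% to 16.0% of TPM in the depleted libraries at 144 h and 12.7% to 13.7% in the si-NT libraries, and 1 of the 5 luminal markers was higher (*KRT8*, by 0.56 on the log2 scale, adjusted p 0.0011 by limma). The part of either in the changes of the polyamine genes was not tested.

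Promoter sequences are shown for the members that changed at 144 h and have a window in the RefSeq table of promoters, which held windows for 7 of the 10 genes and none for *PAOX*. Each sequence is the 250 bases before an annotated start (for *SRM* without the last 10), 5′ to 3′ on the gene's strand, and each matched GRCh37 once. Capitals mark CACGTG (the E-box, a sequence bound by basic helix-loop-helix factors such as MYC) and CCAAT (or its reverse complement ATTGG). The 4 stretches lie in GRCh37 at chr2:10588454-10588703 on the minus strand for *ODC1*, chr2:10588150-10588179 on the minus strand for the 30 bases around an E-box before the second *ODC1* start, chr1:11120086-11120325 on the minus strand for *SRM* and chrX:23801040-23801289 on the plus strand for *SAT1*, where they are upstream of or between the gene's own exons. Of the *SAT1* stretch, 34 bases also lie in an exon of the neighbouring gene ENSG00000233785.
ODC1: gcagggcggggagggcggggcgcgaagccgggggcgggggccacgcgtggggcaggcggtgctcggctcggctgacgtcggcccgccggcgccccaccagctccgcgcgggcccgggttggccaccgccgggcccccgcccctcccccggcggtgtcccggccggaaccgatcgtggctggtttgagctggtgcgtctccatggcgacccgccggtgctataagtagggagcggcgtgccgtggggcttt
ODC1, second start: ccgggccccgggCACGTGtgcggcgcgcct
SRM: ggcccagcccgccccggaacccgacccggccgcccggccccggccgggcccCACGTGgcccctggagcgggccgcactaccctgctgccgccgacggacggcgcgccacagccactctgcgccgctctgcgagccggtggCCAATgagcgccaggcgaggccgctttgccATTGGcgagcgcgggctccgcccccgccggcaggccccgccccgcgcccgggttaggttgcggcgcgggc
SAT1: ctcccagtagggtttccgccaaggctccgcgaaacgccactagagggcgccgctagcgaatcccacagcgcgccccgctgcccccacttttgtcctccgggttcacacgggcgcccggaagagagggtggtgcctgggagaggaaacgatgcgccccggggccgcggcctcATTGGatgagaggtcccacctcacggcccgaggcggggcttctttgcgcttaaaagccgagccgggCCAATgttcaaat
The stretch before the first *ODC1* start held neither motif. The second *ODC1* start, 315 bases further into the gene, had an E-box 29 bases before it and another 5 bases after it, and *SRM* had an E-box 199 bases before its start. In windows from 250 bases before to 50 bases after a start, 2 of the 10 windows of these 7 genes held an E-box (1 each of *ODC1* and *SRM*), against 7.26% of all 35116 windows in the table. CCAAT was found in 5 of the 10 windows, those of *SRM* and *SAT1* among them, and in 34.6% of all windows.

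*ODC1*, which catalyses the entry step, lies at chr2:10580094-10588453 (GRCh37, minus strand; ENSG00000115758). At 144 h it was measured at 261 and 281 TPM in si-NT libraries, at 92.6 and 102 TPM with siRNA 2 and at 140.2 and 109.9 TPM with siRNA 3. Each of the 4 depleted libraries was lower than either control. The log2 fold change was -1.29 (SE 0.19, adjusted p 0.0011), with -1.47 for siRNA 2 alone and -1.12 for siRNA 3 alone, and the call held without any single library. At 72 h the si-NT libraries gave 267 and 191 TPM, siRNA 2 gave 134 and 136 TPM and siRNA 3 gave 189.7 and 182 TPM. The depleted libraries were again lower than both controls, but siRNA 3 only just, since its higher value was 1.38 TPM under the lower si-NT value. The log2 fold change at 72 h was -0.51 (SE 0.19, adjusted p 0.243).

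*SRM* (chr1:11114641-11120077, minus strand; ENSG00000116649), the next synthesis enzyme, was measured at 316 and 348 TPM in the si-NT libraries at 144 h, at 211 and 263 TPM with siRNA 2 and at 229.9 and 266 TPM with siRNA 3. The groups did not overlap, and the log2 fold change was -0.46 (SE 0.14, adjusted p 0.0317). This call was near the threshold: it was lost without either si-NT library of 144 h (adjusted p 0.0931 without replicate 1 and 0.23 without replicate 2), without siRNA 2 replicate 1 (0.0701), without siRNA 3 replicate 1 (0.0614), with no filter on low values (0.0706), with median-of-ratios scaling (0.0515) and with scaling to the spike-in RNAs (0.101, log2 fold change -0.86). With each siRNA alone against si-NT, *SRM* had a log2 fold change of -0.49 for siRNA 2 (adjusted p 0.0429) and of -0.42 for siRNA 3 (adjusted p 0.0724). At 72 h *SRM* ranged from 285 to 331 TPM in si-NT libraries and from 221 to 306 TPM in depleted libraries, and these ranges overlapped (log2 fold change -0.18, adjusted p 0.612).

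*AMD1* and *SMS*, the remaining synthesis genes, did not pass the test at either time point. *AMD1* (chr6:111195973-111220082, plus strand) was measured at 647 and 652 TPM in si-NT libraries at 144 h, at 861 and 921 TPM with siRNA 2 and at 592 and 672 TPM with siRNA 3. The siRNA 2 libraries were thus above the controls, while those of siRNA 3 lay on either side of them. The log2 fold change over both siRNAs was 0.21 (95% interval -0.24 to 0.65) at 144 h and 0.30 (-0.14 to 0.75) at 72 h. *SMS* ranged from 121 to 132 TPM in si-NT libraries and from 101.8 to 126 TPM in depleted libraries at 144 h, with a log2 fold change of -0.19 (-0.45 to 0.07), and of 0.01 (-0.25 to 0.27) at 72 h.

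*SAT1* (chrX:23801290-23804327, plus strand; ENSG00000130066), whose product starts polyamine breakdown, showed the widest change of the 10 genes. At 144 h it was measured at 64.8 and 54.8 TPM in si-NT libraries, at 459 and 325 TPM with siRNA 2 and at 329.7 and 425 TPM with siRNA 3. The 4 depleted libraries were all far above both controls, with no overlap. The log2 fold change was 2.65 (SE 0.19, 95% interval 2.24 to 3.07, adjusted p 1.6e-05), which ranked 18 from the top among the 16337 genes tested. It was 2.67 with siRNA 2 and 2.63 with siRNA 3, and the call held without any single library. At 72 h *SAT1* was 63.9 and 77.7 TPM in si-NT libraries, 96.9 and 144 TPM with siRNA 2 and 135 and 103 TPM with siRNA 3. The 4 depleted libraries lay above both controls, and the log2 fold change of 0.74 (SE 0.19) had an adjusted p of 0.09.

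*PAOX* (chr10:135192765-135205198, plus strand; ENSG00000148832), the oxidase that acts on acetylated polyamines, was measured at 3.91 and 3.64 TPM in si-NT libraries at 144 h, at 5.58 and 7.30 TPM with siRNA 2 and at 5.60 and 5.43 TPM with siRNA 3. The groups did not overlap, and the log2 fold change was 0.54 (SE 0.14, adjusted p 0.0183). It was 0.63 for siRNA 2 alone (adjusted p 0.0203) and 0.45 for siRNA 3 alone (adjusted p 0.0691). The call was lost without si-NT replicate 1 (adjusted p 0.0822) or replicate 2 (0.148) of 144 h, and with scaling to the spike-in RNAs the log2 fold change was 0.21 (adjusted p 0.712). At 72 h *PAOX* was 3.68 and 3.56 TPM in si-NT libraries and 4.41 to 5.90 TPM in depleted libraries, again without overlap, with a log2 fold change of 0.47 (adjusted p 0.147). *SMOX* ranged from 1.37 to 2.02 TPM in si-NT libraries and from 1.20 to 1.65 TPM in depleted libraries at 144 h, and its log2 fold change of -0.20 (95% interval -0.66 to 0.27) did not pass the test.

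**Figure D2:**
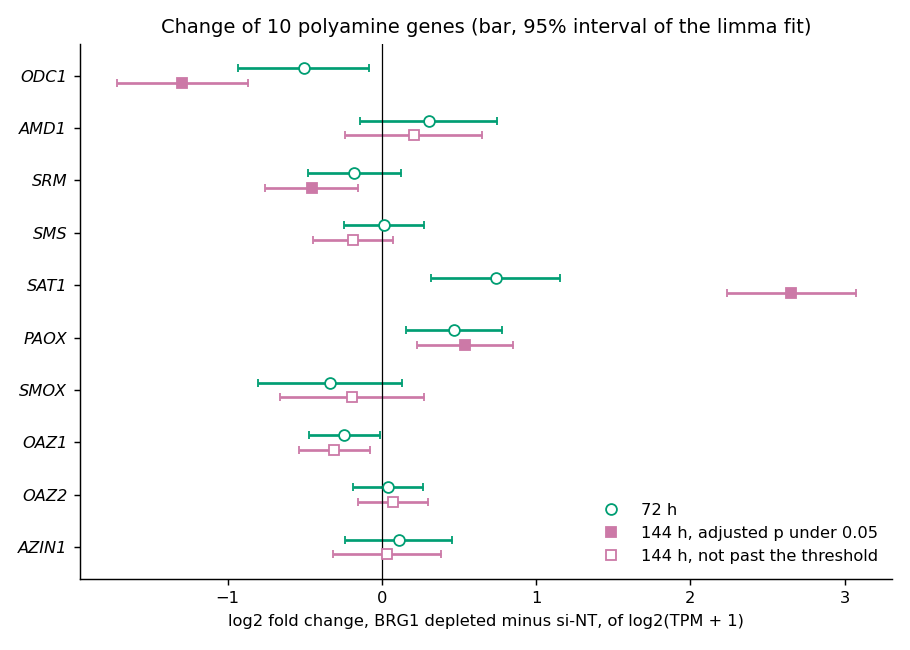
Log2 fold change of log2(TPM + 1), BRG1-depleted minus si-NT (horizontal axis), of each polyamine gene at 72 h (green circles) and 144 h (pink squares), with 95% intervals of the limma fit; filled symbols have an adjusted p under 0.05. The filled squares are *ODC1* (-1.29), *SRM* (-0.46), *SAT1* (2.65) and *PAOX* (0.54).

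None of the 3 regulators of ornithine decarboxylase was called at either time point. *OAZ1* (chr19:2269508-2273489, plus strand), whose product binds the enzyme and delivers it for degradation, was measured at 1281 and 1396 TPM in si-NT libraries at 144 h, at 979 and 1159.8 TPM with siRNA 2 and at 1041 and 1148 TPM with siRNA 3. All depleted libraries were below the controls, but the log2 fold change of -0.31 (SE 0.10) had an adjusted p of 0.0508. It passed the threshold without siRNA 2 replicate 2 of 72 h (0.0243) or of 144 h (0.0472), with a pseudocount of 0.1 (0.0488), with a mean of at least 5 TPM (0.0432) and with all si-NT libraries as 1 group (0.0258). At 72 h the log2 fold change of *OAZ1* was -0.24 (adjusted p 0.312), and its groups did not overlap. *OAZ2* was at 95.9 to 117 TPM and *AZIN1* at 43.6 to 64.3 TPM in depleted libraries at 144 h, ranges that took in both si-NT libraries. Their log2 fold changes were 0.07 (95% interval -0.16 to 0.30) and 0.03 (-0.31 to 0.38). Both at 72 h and at 144 h the intervals of *OAZ2* and *AZIN1* stayed within 0.46 of no change.

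None of the 10 genes was called at 72 h, when 1.68% of all genes tested were called. Without adjustment 4 of the 10 had a p under 0.05 by limma (*ODC1*, *SAT1*, *PAOX* and *OAZ1*), as did 14.3% of all genes tested. The same 4 were those whose groups did not overlap at 72 h: 2 were higher, against 16.3% of all genes, and 2 were lower, against 6.93%. At 144 h 2 genes were higher without overlap, against 26.1% of all genes, and 3 were lower, against 22.5%. A second test compared the 4 depleted libraries of each time point with all 4 si-NT libraries, whatever their time, by an exact two-sided permutation test of mean TPM. This exact test gave p = 0.0286, the smallest that these group sizes allow, for the same 4 genes at 72 h and for 5 genes at 144 h (*ODC1*, *SRM*, *SAT1*, *PAOX* and *OAZ1*). Adjusted over all genes tested these p-values were 0.179 at 72 h and 0.0953 at 144 h, so no gene was called by it. The targeted gene *SMARCA4* had the same exact and adjusted p-values at both times. Even the smallest p did not pass the adjustment, so no conclusion is drawn from the lack of calls.

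The change at 144 h was also compared with the change at 72 h within 1 model. None of the 10 genes passed that test, which called 0.0184% of all genes, and 2 had an unadjusted p under 0.05, against 11.9% of all genes. *SAT1* came closest: its log2 fold change was larger by 1.92 at 144 h (SE 0.27, 95% interval 1.33 to 2.51), with an adjusted p of 0.0512. It passed the threshold without siRNA 2 replicate 2 of 72 h (0.0299), without siRNA 2 replicate 2 of 144 h (0.0392) or without siRNA 3 replicate 1 of 144 h (0.0462), and also with a mean of at least 5 TPM (0.0331) or median-of-ratios scaling (0.0237). For *ODC1* the difference between the time points was -0.79 (SE 0.27, adjusted p 0.33). For *PAOX* it was 0.07 (95% interval -0.37 to 0.51).

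With siRNA 2 and siRNA 3 compared with each other, none of the 10 genes was called by limma at 72 h, against 0.141% of all genes, or at 144 h, against 0.331%. At an unadjusted p under 0.05 there was 1 gene at 72 h (*ODC1*) and there were 2 at 144 h (*AMD1* and *AZIN1*), against 8.33% and 13.3% of all genes, so these counts are near the background. *ODC1* was lower with siRNA 2 than with siRNA 3 by 0.46 on the log2 scale at 72 h (log2 difference -0.46, adjusted p 0.483). *AMD1* was higher with siRNA 2 by 0.50 at 144 h (95% interval 0.05 to 0.94, adjusted p 0.333), and its 2 libraries of siRNA 2 were above both of siRNA 3. *AZIN1* was measured at 64.3 and 63.1 TPM with siRNA 2 and at 54.7 and 43.6 TPM with siRNA 3 at 144 h, a log2 difference of 0.38 (0.08 to 0.67, adjusted p 0.284). For *SAT1* the difference between siRNAs at 144 h was 0.04 (95% interval -0.50 to 0.58). *SMARCA4* itself differed between the siRNAs by 0.17 (-0.26 to 0.60) at 144 h.

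Ratios of transcript levels within a library do not depend on how the library was scaled. The ratio of *SAT1* to *ODC1*, chosen after the values were seen, was 0.24 and 0.407 in the si-NT libraries at 72 h and 0.248 and 0.195 at 144 h. In depleted libraries it was 0.565 to 1.06 at 72 h and 2.35 to 4.95 at 144 h. *SAT1* transcripts were thus fewer than *ODC1* transcripts in every si-NT library and more numerous in every depleted library at 144 h. The ratio of *AMD1* to *ODC1*, also chosen afterwards, was 2.30 to 2.48 in the 4 si-NT libraries, 3.00 to 6.03 in the depleted libraries at 72 h and 4.23 to 9.29 at 144 h. The ratio of both antizymes together to their inhibitor *AZIN1* was 25.5 to 27.2 in si-NT libraries. It was 15.2 to 25.0 in depleted libraries at 72 h and 16.8 to 29.0 at 144 h, where siRNA 3 replicate 2 gave the highest value of all 12 libraries and the groups overlapped.

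**Figure D3:**
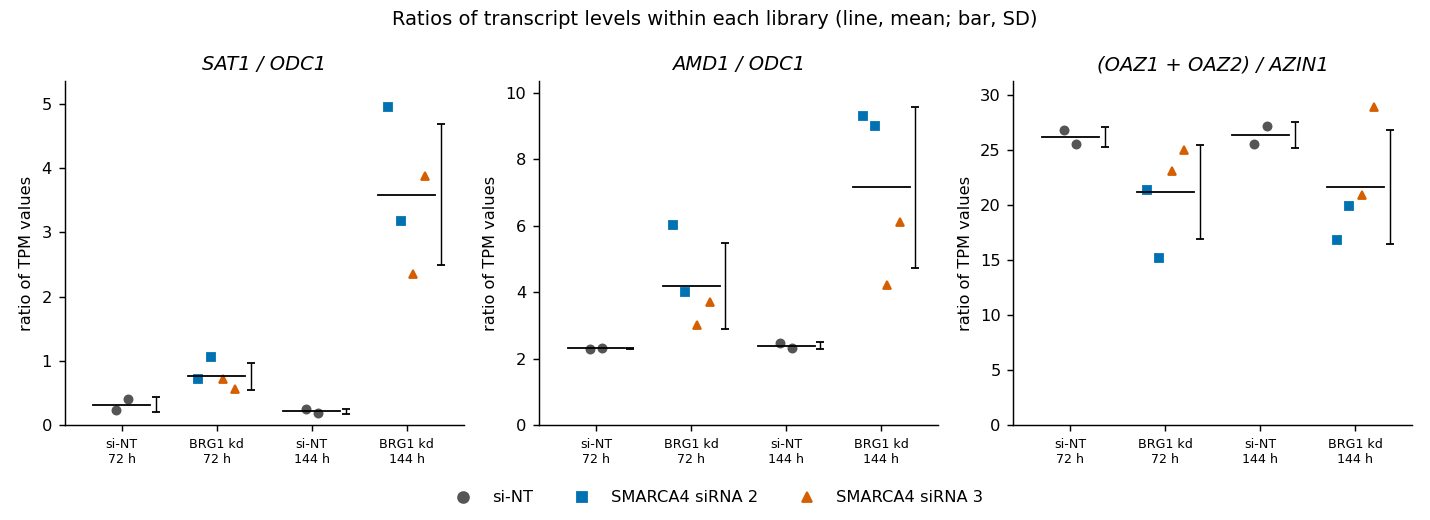
Ratio of TPM values within each library (vertical axes, each from 0) for *SAT1* to *ODC1*, *AMD1* to *ODC1* and the antizymes to *AZIN1*, by group; the line is the mean and the bar the SD. The first ratio is at 0.195 to 0.407 in si-NT libraries and at 2.35 to 4.95 in depleted libraries at 144 h, while the antizyme ratio overlaps between groups at 144 h.

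Around the 10 genes, 35 genes of the wider pathway were listed in 5 groups, and 30 of them passed the filter on low values. At 144 h 3 of the 30 were higher, against 13.6% of all genes, and 10 were lower, against 10.8%. The lower genes include *ARG1*, which passed the filter through si-NT libraries only. Their median log2 fold change was -0.19, against 0.03 for all genes. At 72 h none was higher and 3 were lower, where 1.68% of all genes were called in either direction. The 4 relatives of the core genes (*OAZ3*, *AZIN2*, *SAT2* and *SATL1*) gave 3 tested genes and no call.

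Genes that supply ornithine and arginine held most of these calls: of 11 listed and 9 tested, 5 were lower (10.8% of all genes) and 2 were higher (13.6%) at 144 h. The lower genes include *ARG1*. *SLC7A2*, a carrier of arginine and other cationic amino acids, was at 4.40 and 4.93 TPM in si-NT libraries and at 0.98 to 1.27 TPM in depleted libraries (log2 fold change -1.38, adjusted p 5.4e-05). *ARG1*, an arginase that makes ornithine, was at 1.17 and 1.30 TPM and at 0.06 to 0.17 TPM, and its mean fell by 91.3%. It reached 1 TPM in si-NT libraries only, so it passed the filter on low values through the group where it was high. Its call (log2 fold change -1.01) is therefore no separate support for a fall. Without si-NT replicate 2 of 144 h the log2 fold change was -0.97 and the call was lost. *ASS1*, which joins citrulline and aspartate on the way to arginine, was at 51.8 and 42.8 TPM and at 21.1 to 26.1 TPM (-0.99, adjusted p 0.0062, or 0.0722 without si-NT replicate 1). For *SLC7A2* and *ASS1* every depleted library was below both si-NT libraries at 144 h, as for 22.5% of all genes tested. *ARG2*, the mitochondrial arginase, named here after its values were seen, was at 44.4 and 92.7 TPM in si-NT libraries of 72 h. Its log2 fold change at 72 h was 0.22 (adjusted p 0.782 by limma). At 144 h *ARG2* was at 57.9 and 54.2 TPM in si-NT libraries and at 87.4 to 128 TPM in depleted libraries (0.91, adjusted p 0.0289). The higher si-NT value of 72 h lies within that depleted range. Its call was lost without either si-NT library of 144 h (adjusted p 0.115 and 0.173), without siRNA 2 replicate 1 (0.0641), without siRNA 2 replicate 2 (0.059), with no filter (0.0755) or with scaling to the spike-in RNAs (log2 fold change 0.51, adjusted p 0.402), and the 2 arginases differed in level, since *ARG1* was near 1 TPM in si-NT cells.

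*SLC7A2* and *ASS1* were also lower at 72 h (log2 fold changes -0.91 and -1.11, adjusted p 0.0056 and 0.0277 by limma). *ASS1* was at 88.1 and 97.6 TPM in si-NT libraries of 72 h and at 32.05 to 57.6 TPM in depleted libraries. Its si-NT mean itself differed between the times, at 92.8 TPM at 72 h and 47.3 TPM at 144 h. *SLC7A2* was at 4.81 and 4.55 TPM in si-NT libraries of 72 h and at 1.80 to 2.10 TPM in depleted libraries, and its adjusted p was 0.0556 and 0.0543 without either si-NT library of 72 h, 0.0687 with the 6 libraries of the time point alone and 0.191 with scaling to the spike-in RNAs. For *ASS1* these values were 0.117 and 0.176, and they were 0.0551 without siRNA 2 replicate 1 and 0.054 without siRNA 3 replicate 2 of 72 h. The *ASS1* call at 72 h was also lost with no filter (0.0562), with the 6 libraries of the time point alone (0.179), with scaling to the spike-in RNAs (0.226) and with all si-NT libraries as 1 group (log2 fold change -0.63, adjusted p 0.158).

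Of 8 genes for methionine supply and salvage, all tested, 2 were lower at 144 h, against 10.8% of all genes. *MTAP*, the phosphorylase that recycles the methylthioadenosine left by spermidine and spermine synthesis, was at 29.3 and 30.7 TPM in si-NT libraries and at 12.8 to 17.9 TPM in depleted libraries (log2 fold change -0.91, adjusted p 0.0012), a call that held without any single library. *ENOPH1*, a later enzyme of the same salvage route, fell by 21.3% in mean TPM (-0.34, adjusted p 0.0253), and without the si-NT libraries of 144 h its adjusted p was 0.055 (without replicate 1) and 0.259 (without replicate 2), and with scaling to the spike-in RNAs it was 0.154.

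The 4 genes of hypusine formation, in which spermidine is attached to the translation factor eIF5A, gave 1 gene higher and 1 lower at 144 h. Of all genes tested, 13.6% were higher and 10.8% lower. *EIF5A* was at 668 and 727 TPM in si-NT libraries and at 473 to 547 TPM in depleted libraries (log2 fold change -0.47, adjusted p 0.0072, or 0.0987 without si-NT replicate 2). *DHPS*, the enzyme that transfers the spermidine part, was at 73.7 and 78.1 TPM and at 103.9 to 128 TPM (0.57, adjusted p 0.004, or 0.0601 without si-NT replicate 2). With scaling to the spike-in RNAs the change of *DHPS* was 0.17 (adjusted p 0.77), and *EIF5A* lost its call too (adjusted p 0.0872).

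Of 8 genes linked to polyamine transport, 6 were tested and 2 were lower at 144 h, against 10.8% of all genes. *SLC18B1*, a vesicular polyamine carrier, was at 15.1 and 16.8 TPM in si-NT libraries and at 6.83 to 10.8 TPM in depleted libraries (log2 fold change -0.81, adjusted p 0.0056, or 0.0767 without si-NT replicate 2). *SLC3A2*, the heavy chain of several amino acid exchangers, was at 121 and 125 TPM and at 71.1 to 87.5 TPM (-0.58, adjusted p 0.0292). Its adjusted p was 0.143 and 0.146 without either si-NT library of 144 h and 0.0652 without siRNA 2 replicate 1, 0.069 with no filter and 0.0727 with scaling to the spike-in RNAs. *SLC3A2* was called at 72 h too (-0.80, adjusted p 0.041 by limma), at 158 and 229 TPM in si-NT libraries and 87.5 to 126 TPM in depleted libraries. It was the only 1 of the 6 called at 72 h, when 1.68% of all genes were called. Its si-NT mean was 194 TPM at 72 h and 123 TPM at 144 h. The 72 h call was lost in 16 of 22 alternatives, with adjusted p-values up to 0.452. Among these was leaving out any 1 library other than si-NT replicate 1 of 72 h.

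**Figure D4:**
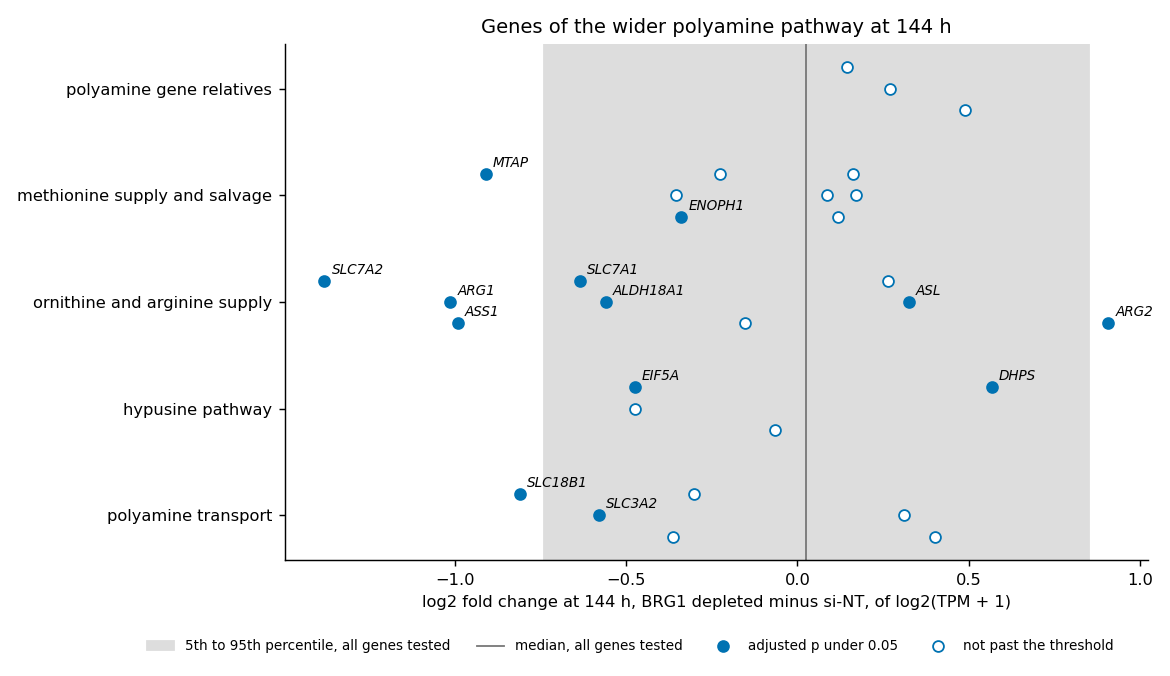
Log2 fold change at 144 h (horizontal axis, BRG1-depleted minus si-NT, of log2(TPM + 1)) of the 30 tested genes of the wider pathway by group; filled points have an adjusted p under 0.05 and are named, the grey band covers all genes tested from percentile 5 to percentile 95 and the grey line is their median. *SLC7A2* (-1.38) lies furthest to the left and *ARG2* (0.91) furthest to the right.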

How the data were processed

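RNA-seq libraries of LNCaP cells were made with a stranded polyadenylated RNA kit after external spike-in RNAs had been added. The authors mapped paired-end reads to GRCh37 with STAR (2.4.0j per the submitters' processing notes), counted them into GENCODE 19 genes with featureCounts and deposited 1 table of TPM for 63568 genes and 92 spike-in RNAs; the strand setting is not given in the sources used here. The methods name a spike-in normalisation, but every deposited TPM column sums to the same total, so it is not kept in these values. Reads of a gene and of an overlapping gene could be shared if strand was not used: the overlapping genes analysed were at 4.56 TPM or below, 1 same-strand gene each over *SAT1*, *OAZ1* and *AZIN1* was not analysed here, and pseudogenes named after members at 0.38 TPM or below. No 2 libraries held identical values.

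Symbols came from GENCODE 44 on GRCh37, by Ensembl identifier. The filter on low values kept 16337 genes that reached 1 TPM in 2 or more libraries, and these were tested on log2(TPM + 1) by limma 3.58.1 with an intensity trend, in 4 groups (treatment by time) over all 12 libraries; a second fit with 6 groups separated the siRNAs. An edgeR fit such as the authors used needs counts, which TPM do not give. P-values were adjusted by the Benjamini-Hochberg method over all genes tested, with a threshold of 0.05. Only the limma comparison of depleted with si-NT cells at 144 h was checked on simulated data. Named genes were *SMARCA4*, all 10 members and, from each wider list, up to 3 genes called at either time, by the size of the change at 144 h. The members, lists and tests were chosen with earlier results of these data known. Same-numbered replicates did not deviate together (15 correlations from -0.23 to 0.30, 2 of them over 0.1), so replicates were not paired.

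Alternatives were a pseudocount of 0.1, no filter, a mean of at least 5 TPM, spike-in, quantile and median-of-ratios scaling, a replicate block, no trend, the 6 libraries of the time point alone, si-NT of both times combined, and each library left out. Where leaving out a si-NT library left 1 control, that control was assumed to vary like the other groups. Other markers of luminal cells are not reported here. Sequences are from the RefSeq promoter table (GRCh38.p14), placed on GRCh37 by exact match.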

Additional observations from a re-analysis of the deposited data

Results flagged for a closer look

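Among the 4 BRG1-depleted libraries of each time point, a library whose gap to its nearest neighbour took most of the group's range (Dixon's test) was found in 2 of the 20 groups of values screened; chance gives about 1 in 20. *PAOX* was at 7.30 TPM in siRNA 2 replicate 2 at 144 h, while the other 3 depleted libraries gave 5.43 to 5.60 TPM. Without that library the log2 fold change of *PAOX* at 144 h was 0.45 (adjusted p 0.0342 by limma), so the call was kept. *SMOX* was at 1.65 TPM in siRNA 3 replicate 2 at 144 h, while the other 3 gave 1.20 to 1.26 TPM.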

How the results depend on the processing

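Of 482 values of single genes under the alternatives, 449 kept their direction and their side of the threshold; *ODC1* and *SAT1* at 144 h did so under every alternative run, with log2 fold changes of -1.70 to -1.16 and 2.25 to 2.77. Polyamine genes called at 144 h numbered 4 and 2 with spike-in scaling, where *SRM* and *PAOX* were lost, 3 with no filter or median-of-ratios scaling (*SRM* lost) and 5 with a pseudocount of 0.1, a mean of at least 5 TPM or combined si-NT (*OAZ1* gained); with each library left out the number was 2 to 5. At 72 h the number was 0, and 3 (*ODC1*, *SAT1* and *PAOX*) when the 4 si-NT libraries were used as 1 group; with each library left out it stayed at 0. For the difference between the time points it was 0, and 1 (*SAT1*) with a mean of at least 5 TPM or median-of-ratios scaling; with each library left out it was 0 to 1. Comparisons of si-NT between times and of the siRNAs with each other gave 0 throughout. Genes of the wider lists called, recounted under alternatives that were added after the data were seen, numbered 3 at 72 h, 1 with no filter, 0 with spike-in scaling or the 6 libraries of the time point, and 0 to 2 with each library left out; at 144 h they numbered 13, 5 with spike-in scaling, and 4 to 14 with each library left out. The causes were not tested.

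Over all genes tested, spike-in scaling moved the median log2 fold change from 0.06 to -0.11 at 72 h and from 0.03 to -0.31 at 144 h. It moved the share of calls that were higher from 66.9% to 27.3% and from 55.8% to 18.5%. With no library left out, the other alternatives gave shares of 46.7% to 77.1% at 72 h and of 49% to 56.5% at 144 h. With spike-in scaling the median at 144 h was -0.07 for siRNA 2 alone against si-NT and -0.56 for siRNA 3 alone. The spike-in share was 0.805% in si-NT replicate 1 of 144 h and 1.34% in replicate 2, so this scaling moves these controls apart. Its part in the lost calls was not tested. Spike-in RNAs were added to 500 ng of total RNA, so the scaling does not measure RNA per cell. Relative to the median, *SAT1* at 144 h was at 2.63 on TPM and 2.57 with spike-in scaling, *ODC1* at -1.32 and -1.38, *SRM* at -0.48 and -0.55, and *PAOX* at 0.51 and 0.52. Directions that turned were those of uncalled genes near 0. With spike-in scaling these were *AMD1* (-0.20), *OAZ2* (-0.33) and *AZIN1* (-0.36) at 144 h and *SMS* (-0.18), *OAZ2* (-0.15) and *AZIN1* (-0.085) at 72 h. *SMS* at 72 h turned to -0.0087 with quantile normalisation, -0.059 with median-of-ratios scaling and -0.084 with combined si-NT, and *OAZ2* at 72 h to -0.032 with median-of-ratios scaling. With each library left out, *SMS* at 72 h ranged from -0.18 to 0.20, *OAZ2* at 72 h from -0.0051 to 0.10 and *AZIN1* at 144 h from -0.033 to 0.15.

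With the replicate block, 4 polyamine genes were called at 144 h and 0 at 72 h, between the time points, between si-NT groups and between siRNAs, and 12 and 3 genes of the wider lists at 144 h and 72 h. TPM keep no read depth, so how far depth limits low genes such as *SMOX* is unknown.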
